A study of Mus musculus with 2 samples.

Results

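The deposited ERRα peak list holds 6 windows at the locus of the long noncoding RNA genes Neat1 and Malat1 on mouse chromosome 19, out of 95 windows on that chromosome and 3225 in all. They were chosen by position, as the rows of chromosome 19 whose start lies between 5780000 and 5870000 on mm9, a stretch of 90 kb that had been noticed for its dense windows. Their number and spacing are therefore given as a description, with no test. A lone window lay at 5803226 to 5803425, and the other 5 formed a run from 5845726 to 5849625.

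The list comes from C2C12 myotubes, the fused form of a mouse myoblast line. Cells were kept for 72 h in 2% horse serum to differentiate, and an adenovirus then delivered flag-tagged PGC-1α, a transcriptional coactivator, over 48 h. Chromatin was precipitated with a rabbit monoclonal antibody to ERRα (clone EPR46Y), an orphan nuclear receptor that partners with PGC-1α on genes of mitochondrial energy metabolism, and sequenced (ChIP-seq). Whole cell extract DNA, the input, was the background. Both libraries came from infected cells, each group had 1 library, and a virus without PGC-1α was not analysed here, so the windows describe ERRα recruitment under PGC-1α over-expression only and have no replicate check. A window in the list carries a position and no height, enrichment or read count, and how deeply either library was sequenced is unknown. The myotube label could not be checked against markers, because a list of positions holds no expression values.

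Neat1 and Malat1 are neighbouring genes whose RNAs stay in the nucleus. Neat1 RNA is the scaffold of paraspeckles, nuclear bodies that gather RNA-binding proteins such as Sfpq, Nono and Pspc1, and is made in a short and a long form from the same start. Malat1 RNA is an abundant transcript that collects at nuclear speckles, where splicing factors are stored, and its end is cut off to give the small mascRNA. Both genes are transcribed from the minus strand, so that upstream of either start means a higher coordinate. ERRα binds a nuclear receptor element with the core AAGGTCA.

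The place of each window relative to the genes rests on the mm9 positions given with the choice of the locus, which put Malat1 near 5.80 Mb and the Neat1 start just below the run; an mm9 annotation was not used here, and no distance to a start was computed. The RefSeq table at hand is of another build, GRCm38.p6, and served for gene order only. In it the order by lowest coordinate, from Malat1 on, was Malat1, the mascRNA entry (symbol Mascrna), Neat1, Frmd8, Slc25a45 and Tigd3. As mascRNA is cut from the end of Malat1 RNA, its entry is not a separate gene between Malat1 and Neat1. All 5 windows of the run thus lay on the upstream side of Neat1, toward Frmd8, the next gene, whose 3′ end faces the Neat1 start because Frmd8 is on the minus strand too. Whether the outer windows reach into Frmd8 was not determined. The lone window lay at the coordinate given for Malat1, and whether it falls within that gene or just upstream of it was not determined.

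The RefSeq promoter of Malat1 is shown because it is the promoter sequence at hand for the members of the locus. It is chr19:5802623-5802922 of GRCm38.p6, minus strand, 5′ to 3′, with the 250 bases before the start in lower case and the first 50 transcribed bases in capitals. These coordinates belong to GRCm38.p6 and are not to be set against the mm9 positions of the windows.
Malat1 promoter: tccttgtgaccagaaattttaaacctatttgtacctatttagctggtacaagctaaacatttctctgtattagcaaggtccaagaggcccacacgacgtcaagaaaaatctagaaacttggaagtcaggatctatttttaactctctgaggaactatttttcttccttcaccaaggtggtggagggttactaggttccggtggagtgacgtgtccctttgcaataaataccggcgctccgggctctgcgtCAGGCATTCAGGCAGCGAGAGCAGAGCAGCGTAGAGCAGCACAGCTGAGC

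Searched on both strands, this window held none of 3 motifs: AAGGTCA, the ERR core, AGGTCA, the nuclear receptor hexamer contained in it, and GGGCGG, the box bound by SP1, a factor named in the series title. Of 32851 RefSeq promoter windows of 300 bases, 4.72% held AAGGTCA, 16.3% held AGGTCA and 35.7% held GGGCGG. Among the 4 genes of the order above with a promoter entry, AGGTCA was found at Slc25a45, a mitochondrial carrier family gene, and GGGCGG at Slc25a45 and Tigd3. No match says only that these letters are not in this window. The sequence under the 6 windows themselves was not analysed here.

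The windows of the run were unevenly spaced. The first, at 5845726 to 5845925, is the one nearest to Neat1, and the second followed 1600 bp on, at 5847326 to 5847525. The third lay at 5848051 to 5848250, a step of 725 bp, and the next at 5848451 to 5848650, a step of 400 bp. The last window, at 5849426 to 5849625, was a step of 975 bp away. Starts were listed in steps of 25 bp, which is the resolution of these distances. The longest step was 4.0 times the shortest, so the inner windows were the most crowded and the window nearest to Neat1 stood somewhat apart. The 5 windows covered 1000 bp, or 25.6% of the 3.9 kb from the first base of the run to the last. With a fixed window width and no signal values, separate ERRα sites cannot be told from a broad enriched stretch listed as several windows.

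**Figure D1:**
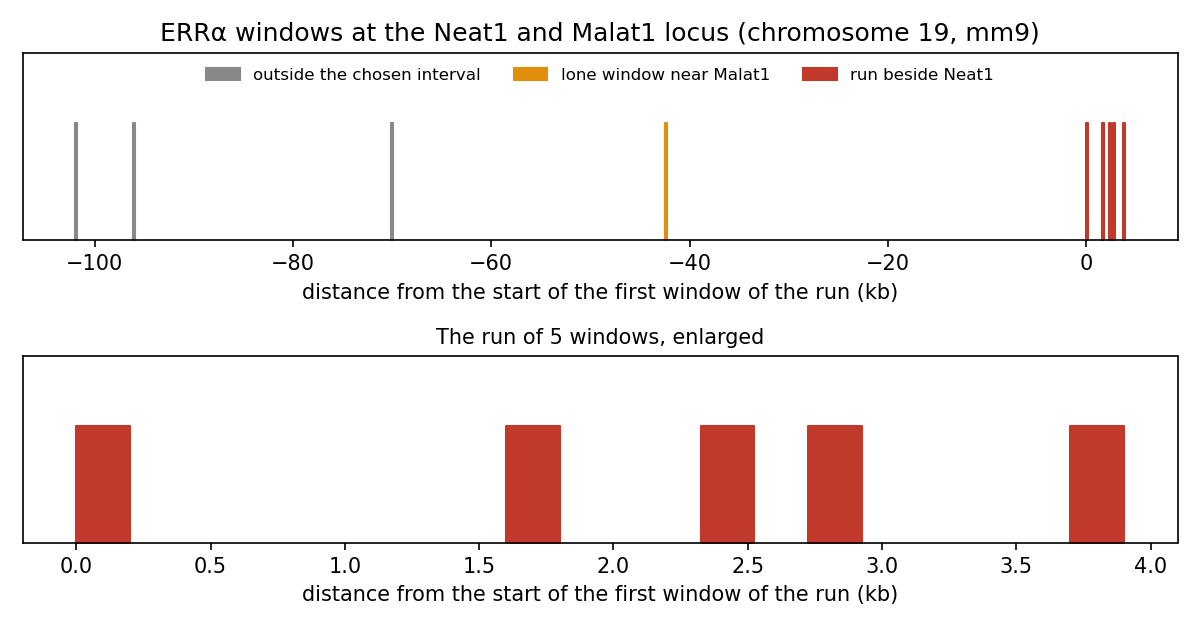
Windows at the locus by distance (kb) from the start of the first window of the run, with lower mm9 coordinates to the left; the lower panel enlarges the run, and bars in the upper panel are drawn wider than 200 bp so that they can be seen. The lone window near Malat1 sits 42.5 kb to the left of the run, 3 windows outside the chosen interval lie farther left, and the steps within the run range from 400 to 1600 bp.

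On chromosome 19 these steps were among the shortest, which describes the choice of a stretch with dense windows. The 400 bp between the starts of the windows at 5848051 and 5848451 was the closest spacing of any neighbouring pair on the chromosome, where the median of 94 distances between neighbouring starts was 179 kb (quartiles 39.9 and 726 kb). Of the 7 neighbouring starts no more than 1 kb apart on chromosome 19, 3 were in the run. Beyond the run the list was empty for a long way upstream of Neat1: the next window began at 6077151, 227725 bp after the start of the last one. That distance was not unusual for the chromosome, since 44 of the 94 were longer.

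The window near Malat1 belonged to no run. Its nearest neighbour lay 27650 bp toward lower coordinates, and the run began 42500 bp toward higher ones, start to start. No window was listed between it and the run, a gap of 42.3 kb on the side on which Neat1 lies in the gene order. On chromosome 19, 60 of the other windows had a nearest neighbour farther away than this one and 34 had a closer one, so it was less isolated than most windows of the chromosome. The median distance to the nearest window on the chromosome was 67.3 kb.

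The limits of the interval decide part of this picture. The window just outside its lower limit, at 5775576 to 5775775, missed it by 4425 bp, while the lone window near Malat1 was 23225 bp inside. Farther out were windows at 5749551 to 5749750 and 5743751 to 5743950. From the last of these to the end of the run, 9 windows lay within 106 kb, and before them the list was empty for 377 kb. At the upper limit the last window of the run was 20.6 kb inside, with no other window near.

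The density of windows in the locus was far above that of the rest of the chromosome. The 6 windows in 90 kb correspond to 66.7 windows per Mb, and the other 89 windows of chromosome 19, spread over 58.1 Mb from the first to the last window, to 1.53 per Mb, a ratio of 43.5. The locus held 6.32% of the windows of the chromosome in 0.155% of its span. The rest was not evenly spread: 26 megabases of the chromosome held no window, while the megabase from 3 to 4 Mb held 8. A background from the same end of the chromosome was not tried, and 43.5 is not a ratio to the near surroundings. Over all other chromosomes the density was 1.26 per Mb. The ratio rests on the run: the lone window by itself would give 11.1 windows per Mb, 7.25 times the rest of the chromosome, a value that any interval of this length with a window in it would reach. Since the interval was picked for its windows, the ratio describes the choice and carries no error or test.

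Counted in the 90 kb centred on each window, the locus stood first on chromosome 19. Since it was chosen as a stretch of 90 kb with dense windows, this rank describes the choice too. The 6 windows of the locus had 5 or 6 windows around them, themselves included, against 1 to 4 for the other 89. Of those, 52 had no other window in their surroundings, 28 had a count of 2, and 8 had a count of 3. The count of 4 belonged to the window at 5775576, next to the locus, whose surroundings include the lone window near Malat1. The fullest stretch of 90 kb on the chromosome held 7 windows, which are the 6 of the locus and that neighbour.

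**Figure D2:**
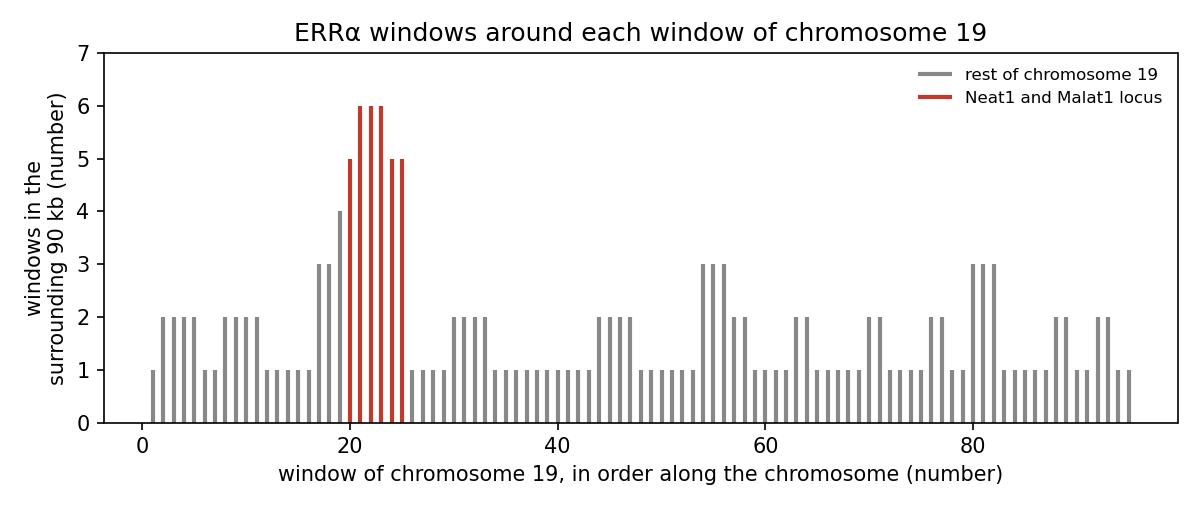
Number of ERRα windows within the 90 kb centred on each of the 95 windows of chromosome 19 (vertical axis), with windows in their order along the chromosome (horizontal axis). The 6 windows of the Neat1 and Malat1 locus reach 5 or 6, and the other windows lie between 1 and 4.

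The megabase from 5 to 6 Mb held 11 windows, the most of the 59 megabases between the first and last windows of chromosome 19. The next fullest, from 3 to 4 Mb, held 8, the median of the others was 1, and 26 were empty. The 11 include the 6 windows chosen for the locus, and without them this megabase would hold fewer than the next fullest. Its first place thus follows from the windows that were chosen.

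Since the locus was chosen for its dense windows, its place by number of windows describes the choice. By that number, the group beside Neat1 was the largest run on chromosome 19, though not the widest. Joining windows with at most 10 kb between them gave 12 runs there, of which 9 were pairs, 2 held 3 windows and 1, the group beside Neat1, held 5; the other 66 windows were single. The runs of 3 lay at 36240951 to 36243875 and at 46544751 to 46559175, spanning 2.93 and 14.4 kb. The pairs spanned 0.95 to 8.65 kb.

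Across the genome the run beside Neat1 was one of a small group, and chromosomes other than 19 had fuller stretches. Of 286 runs of 2 windows or more, 14 held at least 5, which is 4.90% of the runs and 195 of the 3225 windows. Exactly 5 windows were found in 6 runs, on chromosomes 6, 10, 13, 17, 18 and 19. Among these the run beside Neat1 was the second narrowest: the run on chromosome 13, at 21855751 to 21859625, spanned 3875 bp against 3900 bp, a difference of 1 step of the list. The other 4 spanned between 4.93 and 10.3 kb. By evenness it lay within the range of the other runs of 5, whose longest step was 1.45 to 13.5 times the shortest. The run on chromosome 13 had steps of 775 to 1125 bp and was more even than the run beside Neat1.

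The 8 runs with more windows, from 6 to 74, gave another measure of crowding. The tightest 5 neighbouring windows lay closer together than the 3.7 kb from first to last start beside Neat1 in 4 of these 8, down to 2075 bp on chromosome 8. What genes or repeats lie under these runs was not analysed here, so they are compared by spacing only. In the evenly stepped run of 12 windows on chromosome 4, where steps were 2825 to 3000 bp, the tightest 5 took 11.6 kb. The run beside Neat1, with steps of 400 to 1600 bp, had no such fixed step. Of the other 20 chromosomes, 7 had more than 7 windows in their fullest 90 kb, 3 had as many and 10 had fewer.

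**Figure D3:**
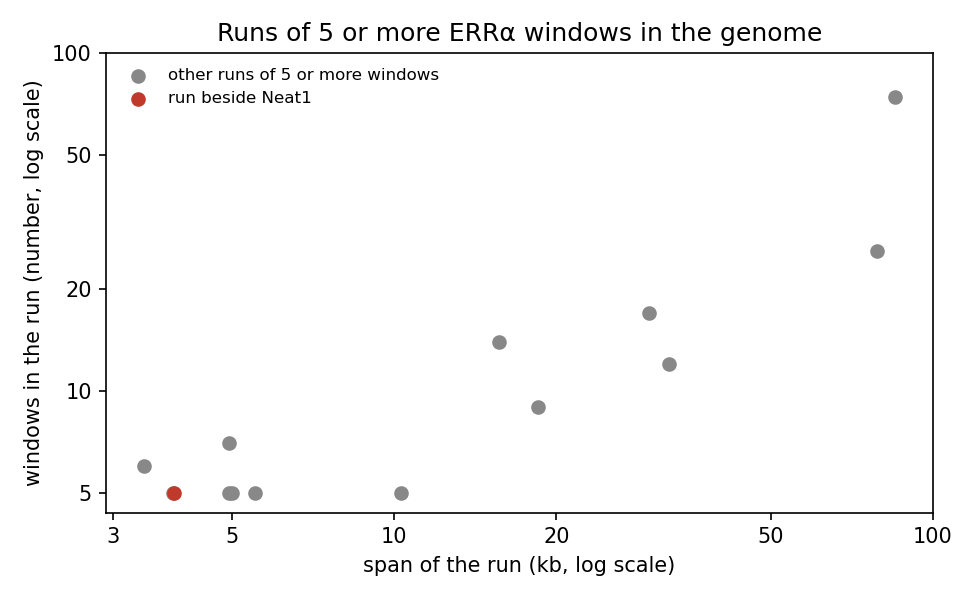
Number of windows (vertical axis, log scale) against span in kb (horizontal axis, log scale) of the 14 runs with 5 or more ERRα windows in the genome, each point a run. The run beside Neat1 (5 windows, 3.9 kb) lies at the lower left and covers the point of the chromosome 13 run, which spans 3875 bp. Runs with more windows reach 74 windows in 85.0 kb.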

How the data were processed

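ERRα immunoprecipitated DNA and input DNA (1 library each) were grouped by sample title. The submitters' processing notes name Bowtie 0.12.7 and mm9. Peak caller, threshold and filters were not given in the sources used here. What the authors deposited is a list of 3 columns with positions as its only values (chromosome, start and end), every window being 200 bp wide. The number of columns of other samples was 0.

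Members were taken by position, and the members, lists and measures were chosen with earlier results of these data known. Starts are printed counted from 1. Runs join windows with at most 10 kb between them; densities divide windows by the span from first to last window. Named were both genes, the genes next to them toward higher coordinates in RefSeq (GRCm38.p6, order only; what lies on the other side is not reported here), the windows of the locus, and those of chromosome 19 that were as crowded; others are named for comparison, chosen after their values were seen. Lists of paraspeckle, speckle and ERR network genes could not be placed on mm9 and were not analysed here, nor was the sequence under the windows. Of both genes, Malat1 matched a RefSeq promoter entry. No test was made: with 1 library a group, neither depth nor replicate error is known. Other intervals, backgrounds, joining distances and widths were tried. Python 3.11.15, numpy 2.4.6, pandas 2.3.3, scipy 1.17.1 and matplotlib 3.10.9 were used; the steps were tested on simulated data.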

Additional observations from a re-analysis of the deposited data

How the results depend on the processing

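The ratio of the window density in the locus to that of the rest of chromosome 19, 43.5, ran from 33.7 (interval of 180 kb) to 52.8 (background of all other chromosomes) over 6 alternatives. Each of these kept windows that were picked for their density, so the range cannot show how far the ratio depends on that choice. The interval of 45 kb cut through the run and held 3 windows. Without the run the ratio was 7.25, which is outside this range. The run beside Neat1 had 5 windows when joined within 2, 5, 10 or 20 kb and 4 within 1 kb, which leaves out the window nearest to Neat1; within 50 kb it had 9, because it then takes in the window near Malat1 and the 3 beyond it. By its most crowded window, the locus, chosen for its dense windows, ranked first on chromosome 19 with surroundings of 10, 50, 90 and 200 kb (tied at 200 kb). At 10 and 50 kb this rank belonged to the 5 windows of the run alone, while the window near Malat1 had a count of 1, the median of the others. At 200 kb the window near Malat1 had a count of 9 and those of the run had 8. The 2 windows outside the locus with a count of 9, at 5749551 and 5775576, were its neighbours toward lower coordinates. No rows of chromosome 19 overlapped, so merging changed nothing. Distances to gene starts and motifs in widened windows were not run, since an mm9 annotation and sequence were not used here. No paired analysis was possible because there was 1 immunoprecipitated and 1 input library, so leaving out a replicate could not be tried either. Without a known depth, a stretch without windows is not a stretch without ERRα.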
